A study of Rattus norvegicus with 82 samples.

Results

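The small leucine-rich proteoglycans (SLRPs) were followed as 8 genes chosen by name, out of 17337 genes in the count table. They are decorin (Dcn, NCBI Gene 29139), biglycan (Bgn, 25181), asporin (Aspn, 306805), lumican (Lum, 81682), fibromodulin (Fmod, 64507), prolargin (Prelp, 84400), osteomodulin (Omd, 83717) and osteoglycin (Ogn, 291015). All 8 had a row, but only 5 (Dcn, Bgn, Lum, Fmod and Prelp) had enough counts to be tested. Aspn, Omd and Ogn were listed at or near 0 and are described by their counts.

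SLRPs are secreted proteins with a core of leucine-rich repeats, most of which carry chondroitin, dermatan or keratan sulfate chains. They sit on collagen fibrils and set fibril width and spacing, and they bind growth factors of the TGF-β family and receptors on the cell surface. In the heart they are made mainly by fibroblasts and accumulate in the matrix of the loaded or scarred wall.

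The libraries came from cardiomyocytes isolated from the right (RV) and left ventricle (LV) of 41 rats, 1 library per ventricle and animal, 82 in all. The rats were the first generation of a cross of female Wistar Kyoto with male Lewis rats, and both sexes were used. The RV was loaded by a clip on the pulmonary artery (PAB) and the LV by a clip on the aorta (AOB), and sham-operated animals were the controls. The article describes the PAB and AOB clips as not constricting when placed, with constriction increasing as the animals grew. Stage H stands for compensated hypertrophy and stage F for decompensated heart failure. Sham-H (7 animals), PAB-H (6) and AOB-H (6) were taken at an age of 11 weeks, 7 weeks after surgery. Sham-F (9) and AOB-F (7) were taken at 31 weeks, 26 weeks after surgery, and PAB-F (6) at 28 weeks, 22 weeks after surgery, so the PAB-F animals were younger than the Sham-F animals they were compared with. The article and the labels give differing ages, and the ages and times printed here are those of the labels. Each group held between 2 and 5 animals of each sex. The cells were released by collagenase perfusion and enriched by centrifugation, so other cells of the ventricle may remain in a library, and fewer cells of a type and less RNA per cell cannot be told apart in such bulk samples.

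The libraries held between 6675287 and 19665439 counts on genes (median 13074485). Genes of the contractile apparatus and calcium handling that mark ventricular cardiomyocytes (9 genes, none at 0 in a library) took 6.07% to 14.3% of the counts. Fibroblast markers (10 genes, of which Col1a2 was at 0 in 71 libraries and none of the others in any) took 0.0136% to 0.268%. A few libraries stood apart from their group. Among the RV PAB-H libraries, replicates 1 and 2 had fibroblast marker shares of 0.128% and 0.268%, against 0.0334% to 0.0517% in the other 4. Among the RV PAB-F libraries, replicate 1 had 0.170%, against 0.0264% to 0.0620% in the other 5. Among the LV AOB-H libraries, replicate 6 had 0.143%, against 0.0274% to 0.0508% in the other 5, and it was the shallowest library of all. Results that rest on these libraries are given with and without them. Their marker shares are given beside the results, and their part in them was not tested.

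The start regions of Lum and Fmod are shown because these are the members with a promoter entry whose levels could be followed. All 8 members matched a gene in RefSeq (GRCr8) by gene ID, and 5 had an entry in its promoter table. Each run covers 250 bases before to 50 bases after the annotated start, on the plus strand, and capitals mark the motif letters found. Dcn and Lum lie side by side on chromosome 7, and Prelp and Fmod on chromosome 13.
Lum, chr7:34245456-34245755: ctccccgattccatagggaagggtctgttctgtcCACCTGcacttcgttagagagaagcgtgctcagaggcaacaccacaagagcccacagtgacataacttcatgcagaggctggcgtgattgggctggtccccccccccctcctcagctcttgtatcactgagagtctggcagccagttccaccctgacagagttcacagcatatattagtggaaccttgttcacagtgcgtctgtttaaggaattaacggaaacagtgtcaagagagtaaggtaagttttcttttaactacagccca
Fmod, chr13:48045317-48045616: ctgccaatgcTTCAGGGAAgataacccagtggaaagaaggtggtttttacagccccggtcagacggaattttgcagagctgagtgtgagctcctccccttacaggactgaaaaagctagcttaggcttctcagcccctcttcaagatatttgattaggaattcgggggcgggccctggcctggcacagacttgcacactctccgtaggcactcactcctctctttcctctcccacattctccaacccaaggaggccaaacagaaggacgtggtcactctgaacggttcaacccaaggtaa
Both strands were searched for 6 motifs, whose shares are over 33469 promoters of the same length. The TATA box was searched as TATAAA and occurred in 14.2% of promoters. The AP-1 motif was searched as TGANTCA and occurred in 7.33%, and the TEAD motif was searched as GGAATG and occurred in 14.2%. The SMAD motif was searched as CAGACA and occurred in 21.1%. The STAT motif was searched as TTCNNNGAA and occurred in 8.87%, and the E-box was searched as CANNTG and occurred in 72.1%. The Lum window held an E-box at position -216 from the start and the Fmod window held STAT letters at -240, and none of the other letters was in either window. No motif letters overlapped another motif there.

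Per base of transcript, Dcn was the most abundant member. In the deposited FPKM values (fragments scaled to transcript length and sequencing depth), which allow a comparison between genes, Dcn ranged from 19.8 to 285 over the 82 libraries with a median of 51.4. Bgn followed with a median FPKM of 16.4 (6.57 to 98.3) and Lum with 8.25 (2.98 to 69.5). Prelp and Fmod were the least abundant of the 5, with median FPKM of 3.54 (1.21 to 19.7) and 1.78 (0.388 to 6.46). Dcn had the highest FPKM of the family in 79 of 82 libraries, and the order Dcn, Bgn, Lum held in 77. The lowest of the 5 was Fmod or Prelp in 81 libraries. When the 12 groups were ordered by their mean level of a member, neighbouring groups differed by less than the larger of their SDs, with 1 exception, Fmod in RV AOB-F (92.2 ± 20.2 normalized counts, SD, n = 7) above RV Sham-F (63.5 ± 25.5, n = 9).

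**Figure D1:**
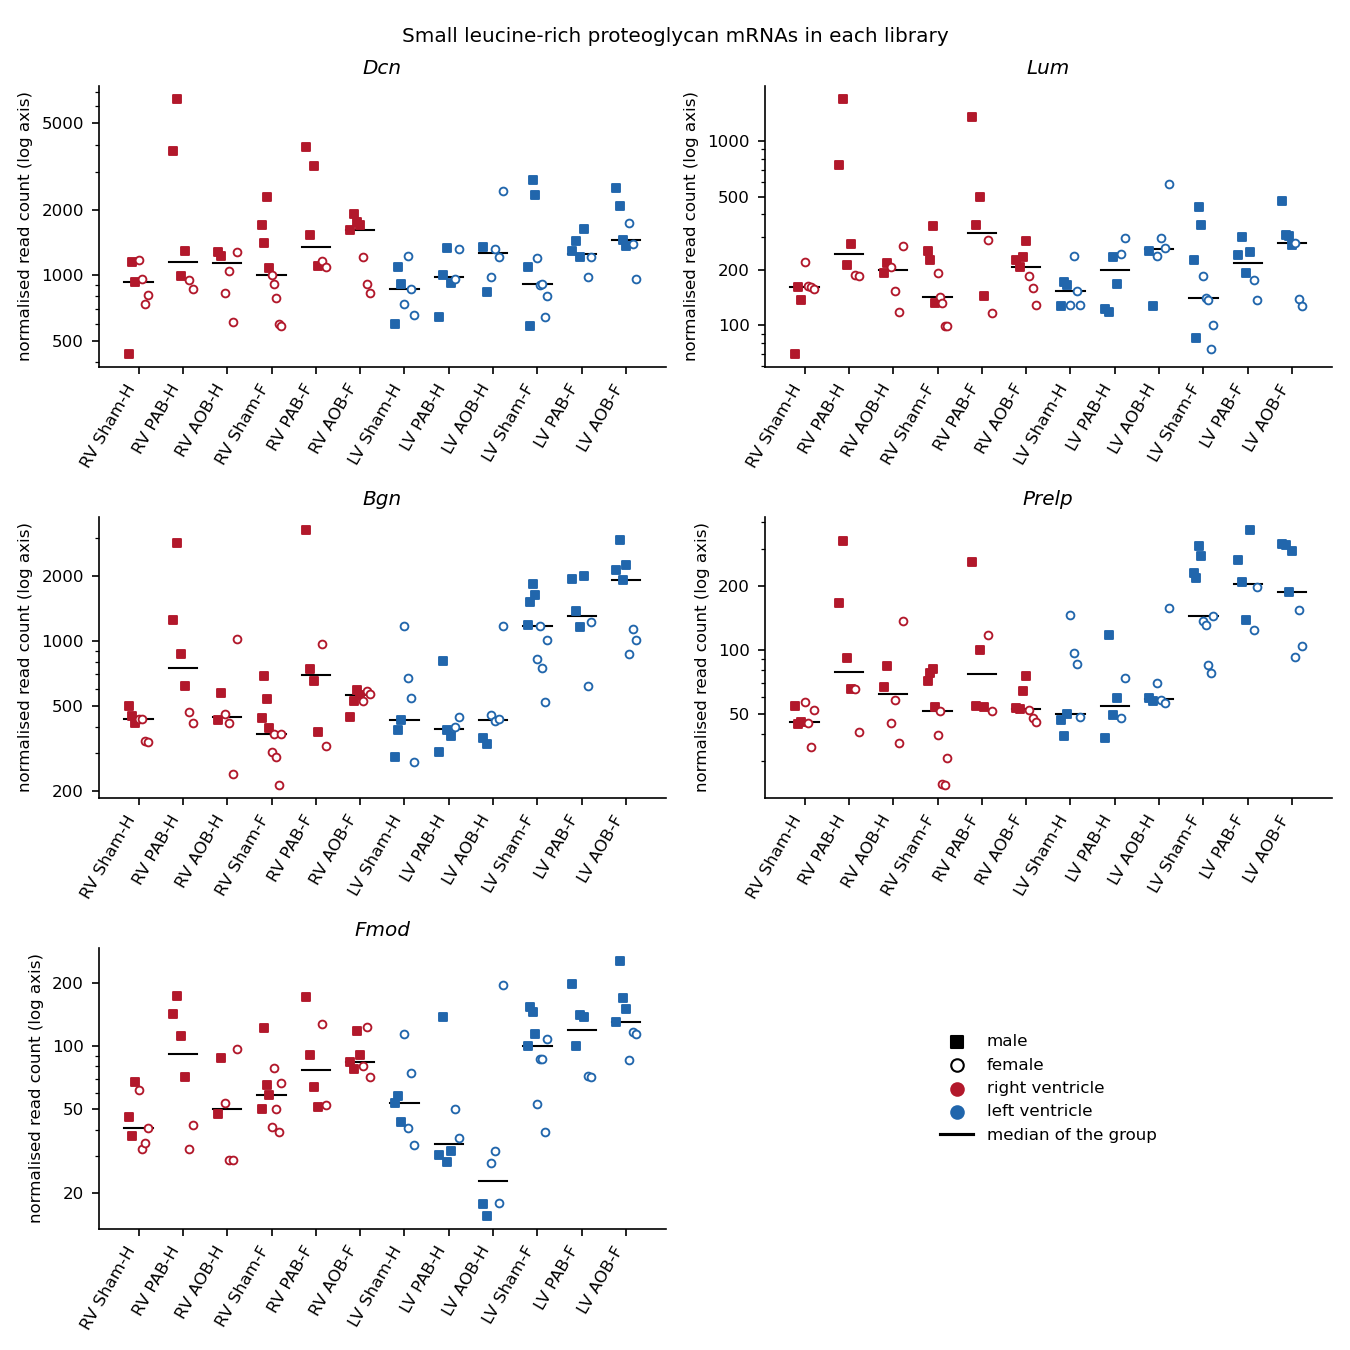
Normalized read counts (log axis) of the 5 tested members in every library, by group, with the RV in red, the LV in blue and the group medians as bars. Dcn reached 6495 in 1 RV PAB-H library and 3911 in 1 RV PAB-F library, while Bgn and Prelp were higher in the LV groups of stage F than in the RV groups of the same stage in most libraries.

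Ogn, the class III member osteoglycin, had a count in 1 library (1 count), although fibroblasts of the heart are known to make it. Aspn, a class I member, had counts in 3 libraries (1 count each), and Omd, a keratan sulfate proteoglycan of bone matrix, had 14 counts in 11 libraries, at most 3 in any. A total of 3 counts corresponds to 0.449 CPM (counts scaled to library total) in the shallowest and 0.153 CPM in the deepest library, counting error only. The 3 genes lie next to each other on chromosome 17, within the span of Cenpp in RefSeq GRCr8, a gene not analysed here. Nol8, a nucleolar protein gene beside them, was also at 0 in 79 of 82 libraries, while Ippk, the next gene of the table on the other side, had a median of 252 counts. Col1a2 was at 0 in 71 libraries (at most 5 counts), although Col1a1, the other chain of type I collagen, had 244 to 7636 counts. For these reasons Ogn, Aspn and Omd are reported as listed at or near 0, and no level is read from it. The cause was not tested.

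In the RV under pressure load at stage H, 4 of the 5 tested members were higher than in the sham RV. All 4 were 2.59-fold to 3.59-fold higher on average, and the averages rested on few libraries. Over all 11954 genes tested, 4.5% were called in this comparison (adjusted p below 0.05, edgeR quasi-likelihood test with Benjamini-Hochberg adjustment, two-sided). Dcn, Lum, Bgn and Prelp are also on the study's own list of PAB-regulated genes, which was drawn from these libraries, so that list gives no independent evidence of their direction. RV PAB-H held 4 males and 2 females, and RV Sham-H 3 and 4. For Dcn, Lum and Bgn every RV PAB-H library above the RV Sham-H range was male, and the 2 females lay within it. For Prelp the higher female (65.5 normalized counts) lay above it. With sex as a covariate Bgn lost its call (log2 1.20, adjusted p = 0.051), and Dcn (1.18), Lum (1.59) and Prelp (1.21) kept theirs.

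The tested class I members were Dcn and Bgn, which carry chondroitin or dermatan sulfate. Dcn had 434, 931 and 1171 normalized counts (lowest, median and highest) in RV Sham-H and 869, 1148 and 6495 in RV PAB-H. The groups overlapped, and 3 of 6 PAB-H libraries lay above the sham range. The log2 fold change was 1.44 ± 0.35 (SE, adjusted p = 0.011). Bgn, which also binds Toll-like receptors once released from the matrix, had 338, 433 and 498 in RV Sham-H and 415, 743 and 2838 in RV PAB-H. For Bgn, 4 of 6 banded libraries lay above the sham range, and the log2 fold change was 1.37 ± 0.37 (adjusted p = 0.023).

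Of the class II members, Lum, a keratan sulfate proteoglycan of collagen fibrils, had the largest change of the family in this comparison. It had 69.9, 161 and 222 normalized counts in RV Sham-H and 185, 245 and 1694 in RV PAB-H, with 3 of 6 libraries above the sham range. Its log2 fold change was 1.84 ± 0.41 (adjusted p = 0.0057). Prelp, which links basement membranes to collagen, had 34.8, 45.6 and 56.6 in RV Sham-H and 40.7, 78.6 and 326 in RV PAB-H. For Prelp, 5 of 6 libraries lay above the sham range, the most of any member, and the log2 fold change was 1.41 ± 0.38 (adjusted p = 0.022). Fmod, which binds collagen and modulates its cross-linking, did not pass the test, with 32.4, 40.9 and 67.7 in RV Sham-H, 32.2, 91.4 and 174 in RV PAB-H and a log2 difference of 1.05 ± 0.40 (adjusted p = 0.10). The median log2 difference of the 5 members was 1.41, beside 0.0043 over all genes tested.

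These calls depended on RV PAB-H replicate 2. Without this library none of the 5 members was called, and the log2 differences were 0.83 for Dcn, 1.07 for Lum, 0.80 for Bgn and 0.86 for Prelp. In that edgeR fit 4 of the 5 members had an unadjusted p under 0.05. Few genes of any kind were called in it, 23 higher and 4 lower of 12013 tested. Without replicate 1, Prelp alone lost its call (1.32, adjusted p = 0.053), and without replicate 5 Fmod was called as well. Without replicates 1 and 2, a choice made after their values were seen, none was called either and the log2 differences were 0.21 for Dcn, 0.48 for Lum, 0.50 for Bgn and 0.46 for Prelp. In the same comparison 9 of 9 tested fibroblast markers were called higher (median log2 fold change 1.30). Without replicate 2 edgeR called 0 of the 9 and all 9 had an unadjusted p under 0.05 (median 0.85). No cardiomyocyte or macrophage marker was called by edgeR, with 3 of 9 and 7 of 8 at an unadjusted p under 0.05. Of the other lists, 1 of 7 endothelial, 1 of 7 mural cell and 1 of 4 mesothelial markers were called higher. Among RV PAB-H libraries, the cardiomyocyte marker share was 9.92% to 13.8%, against 12.6% to 13.4% in RV Sham-H, and replicate 2 was the lowest. The part of these markers in the members' values was not tested.

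At stage F the members called in the RV were Lum, Bgn and Prelp, 3 of 5, against 11.1% of all genes tested. Lum had 98.9, 143 and 347 normalized counts in RV Sham-F and 116, 319 and 1341 in RV PAB-F, a log2 fold change of 1.33 ± 0.38 (adjusted p = 0.013). Bgn had 214, 368 and 684 in RV Sham-F and 323, 692 and 3273 in RV PAB-F, a log2 fold change of 1.40 ± 0.35 (adjusted p = 0.0047). Prelp had 22.99, 51.5 and 81.3 in RV Sham-F and 51.5, 77.1 and 260.5 in RV PAB-F, a log2 fold change of 1.07 ± 0.36 (adjusted p = 0.040). For each of the 3, 3 of 6 banded libraries lay above the sham range and the others within it.

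Dcn did not pass the test at stage F. It had 585, 1008 and 2304 normalized counts in RV Sham-F and 1091, 1346 and 3911 in RV PAB-F, with a log2 difference of 0.79 ± 0.32 (adjusted p = 0.092), and 2 of 6 libraries lay above the sham range. Fmod had 39.1, 58.3 and 122 in RV Sham-F and 51.3, 77.4 and 172 in RV PAB-F, with a log2 difference of 0.55 ± 0.37 (adjusted p = 0.34). Without RV PAB-F replicate 1 no member was called, and the log2 differences were 0.63 for Lum, 0.61 for Bgn and 0.59 for Prelp. In that edgeR fit 0 of the 5 members had an unadjusted p under 0.05. Of 12015 genes tested in it, 260 were called higher and 98 lower. Prelp lay near the threshold and lost its call with no filter on low counts (0.99, adjusted p = 0.058) and without any single one of RV Sham-F replicates 5 to 9 or RV PAB-F replicate 5 (log2 0.97 to 1.07), and without RV Sham-F replicate 3 Dcn was called. Of the fibroblast markers, 6 of 9 were called higher (median log2 fold change 1.23), 2 of 9 without replicate 1, and of the macrophage markers 3 of 8. Of the other markers, 2 of 7 endothelial, 1 of 7 mural cell, 1 of 4 mesothelial and 1 of 9 cardiomyocyte genes (Myh7, the β-myosin heavy chain that rises under load) were called higher. The part of these markers in the members' values was not tested.

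**Figure D2:**
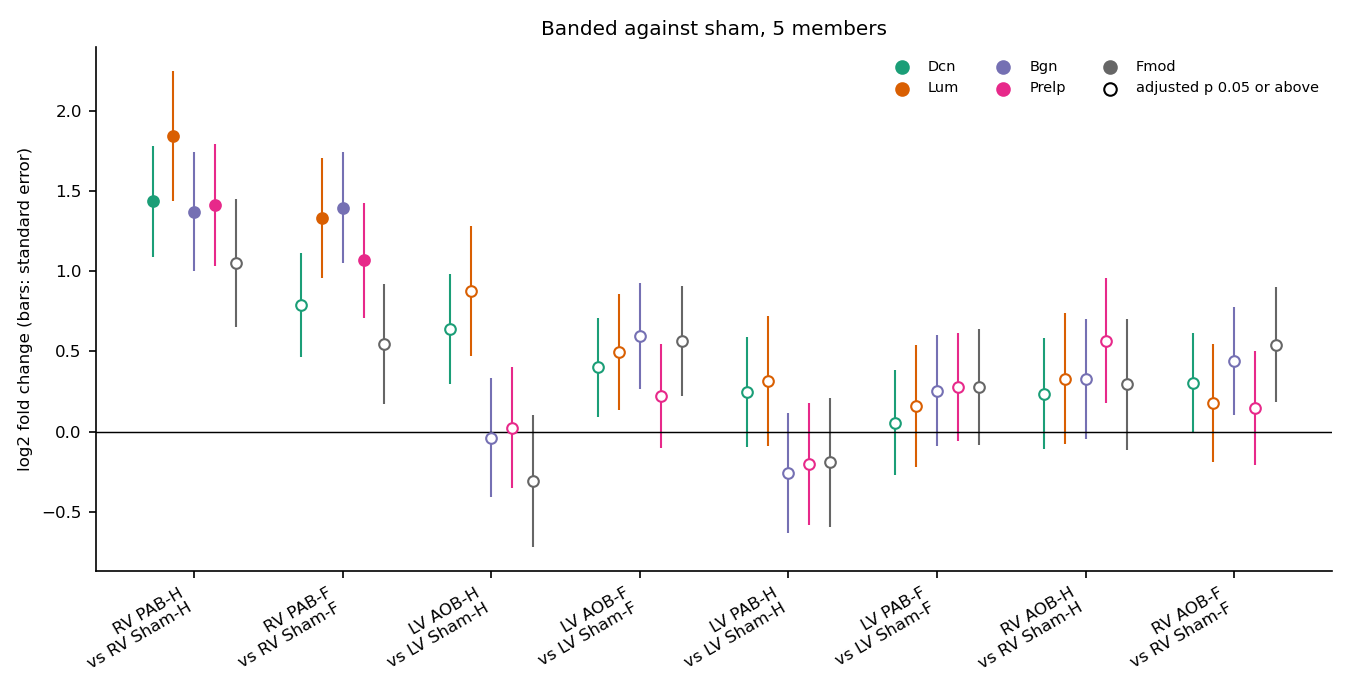
Log2 fold change with its standard error for the 5 tested members in each comparison of a banded group with its sham group, with called values filled. Called values are confined to RV PAB-H (Dcn, Lum, Bgn and Prelp) and RV PAB-F (Lum, Bgn and Prelp).

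The response to PAB was not shown to differ between stages. The difference of the log2 fold changes in the RV, stage F minus stage H, was -0.65 ± 0.47 for Dcn, -0.51 ± 0.55 for Lum, 0.02 ± 0.51 for Bgn, -0.51 ± 0.55 for Fmod and -0.34 ± 0.52 for Prelp. None of the 5 was called by edgeR or DESeq2, none had an unadjusted p under 0.05, and 0% of all genes were called (177 had an unadjusted p under 0.05). The responses of the 2 chambers were compared in the fit of group means, which does not pair the chambers of an animal. Against the LV, the PAB-H response of the RV was larger by 1.19 ± 0.49 for Dcn, 1.53 ± 0.57 for Lum, 1.63 ± 0.53 for Bgn, 1.25 ± 0.57 for Fmod and 1.61 ± 0.54 for Prelp on the log2 scale. All 5 had an unadjusted p under 0.05, but none passed the adjustment over all genes in either tool (adjusted p = 0.40 to 0.49 in edgeR), and 0% of genes were called (1104 at an unadjusted p under 0.05). For PAB-F the same difference was 0.73 ± 0.46 for Dcn, 1.17 ± 0.54 for Lum, 1.14 ± 0.50 for Bgn, 0.27 ± 0.52 for Fmod and 0.79 ± 0.50 for Prelp. Lum and Bgn had an unadjusted p under 0.05 and none of the 5 was called, beside 0.351% of all genes.

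In the LV under pressure load no member was called at either stage. For AOB-H, 0.0167% of all genes were called and 2387 had an unadjusted p under 0.05. Lum alone among the 5 members had an unadjusted p under 0.05, with 127, 153 and 237 normalized counts in LV Sham-H and 127, 259 and 584 in LV AOB-H, a log2 difference of 0.88 ± 0.40 (adjusted p = 0.22). Dcn had 599, 869 and 1223 in LV Sham-H and 834, 1272 and 2438 in LV AOB-H (log2 difference 0.64 ± 0.34, adjusted p = 0.28). Bgn and Prelp differed by -0.04 ± 0.37 and 0.02 ± 0.38. Fmod split the group. In LV AOB-H, 5 of 6 libraries had 15.5 to 31.8 Fmod counts, below the lowest LV Sham-H library at 33.8, and replicate 6 had 195, above the highest at 114. The log2 difference of Fmod was -0.31 ± 0.41 (adjusted p = 0.70). Without replicate 6 it was -1.43 ± 0.39 (unadjusted p = 0.00055, adjusted p = 0.33), and Dcn was 0.40 ± 0.35, Lum 0.58 ± 0.41, Bgn -0.42 ± 0.38 and Prelp -0.29 ± 0.39. No member was called without it (Fmod alone had an unadjusted p under 0.05), nor was any gene of 12023 tested (1648 at an unadjusted p under 0.05).

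For AOB-F against Sham-F in the LV, 12.9% of all genes were called and 0 of the 5 members, in edgeR and in DESeq2 alike, and no member had an unadjusted p under 0.05. All 5 log2 differences were above 0, at 0.40 ± 0.31 for Dcn, 0.49 ± 0.36 for Lum, 0.59 ± 0.33 for Bgn, 0.56 ± 0.35 for Fmod and 0.22 ± 0.32 for Prelp (adjusted p = 0.23 to 0.69). The groups overlapped for every member. Bgn came nearest to the threshold, with 519, 1168 and 1839 normalized counts in LV Sham-F and 871, 1904 and 2930 in LV AOB-F, and 4 of 7 banded libraries lay above the sham range. In this comparison edgeR called 0 of 9 fibroblast markers (0 at an unadjusted p under 0.05) and 3 of 8 macrophage, 2 of 7 endothelial and 1 of 7 mural cell markers, which were higher. Their part in the members' values was not tested. The AOB-F response was not shown to differ between LV and RV for any member (differences of 0.02 to 0.32 on the log2 scale, SE 0.44 to 0.52), with 0% of all genes called and 1161 at an unadjusted p under 0.05.

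In the ventricle away from the band no member was called or had an unadjusted p under 0.05, and DESeq2 called none. For the LV of PAB-H and PAB-F, 0% of all genes were called (305 and 454 at an unadjusted p under 0.05), and the members' log2 differences lay between -0.26 and 0.31. For the RV of AOB-H and AOB-F, 0% (171 at an unadjusted p under 0.05) and 0.0669% of genes were called, and the members lay between 0.15 and 0.57.

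Without a band, Bgn and Prelp were lower in the RV than in the LV of Sham-F animals, and Dcn, Lum and Fmod were not called. This is 2 of 5 members in a comparison with a wide background, where 74.3% of all genes were called, and whether Bgn and Prelp differed from Dcn and Lum was not tested. Bgn had 214, 368 and 684 normalized counts in RV Sham-F and 519, 1168 and 1839 in LV Sham-F, a log2 difference of -1.54 ± 0.32 (RV minus LV, adjusted p = 1.8e-05), and 7 of 9 RV libraries lay below the LV range. Prelp had 22.99, 51.5 and 81.3 in the RV and 77.4, 145 and 307 in the LV, a log2 difference of -1.82 ± 0.33 (adjusted p = 8.48e-07), with 8 of 9 RV libraries below the LV range. Within animals, Bgn and Prelp were each lower in the RV in 9 of 9. The median log2 difference within an animal was -1.44 for Bgn and -1.75 for Prelp.

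On average Dcn and Lum had nearly the same levels in both chambers of Sham-F, while single animals differed in either direction. Dcn had 585, 1008 and 2304 in the RV and 585, 910 and 2733 in the LV, a log2 difference of -0.11 ± 0.29 (adjusted p = 0.74). Lum differed by -0.10 ± 0.34 (adjusted p = 0.81). Dcn was higher in the RV in 3 of 9 animals and Lum in 5 of 9. Within an animal, the log2 difference ranged from -1.12 to 1.27 for Dcn and from -1.41 to 1.40 for Lum. Fmod differed by -0.63 ± 0.34 (adjusted p = 0.082) and was lower in the RV in 9 of 9 animals, and it was also called in the fit with the animal as a block. In the same comparison 9 of 9 fibroblast markers were lower in the RV (median log2 -2.02), and 6 of 7 endothelial, 5 of 8 macrophage, 4 of 7 mural cell and 1 of 4 mesothelial markers were lower. Of the 9 cardiomyocyte markers, 4 were called higher in the RV and 2 lower (median log2 0.016). Their summed share of counts was 11.5% to 14.3% in the RV and 8.53% to 10.3% in the LV. The fibroblast marker share was 0.0136% to 0.0385% in the RV and 0.0438% to 0.120% in the LV. The part of these markers in the levels of Bgn and Prelp was not tested.

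At stage H no member was called between the chambers. Of all genes 21% were called between RV and LV of Sham-H, 0 of the 5 members in edgeR or DESeq2, and none had an unadjusted p under 0.05. The log2 differences ranged from -0.63 ± 0.37 for Prelp to 0.02 ± 0.33 for Dcn.

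Between the sham groups of the 2 stages, Bgn and Prelp were higher at stage F in the LV and were not called in the RV. Age and time after surgery differ together between these groups and cannot be told apart. In the LV, where 57.4% of all genes were called, Bgn had 273, 428 and 1165 normalized counts in Sham-H and 519, 1168 and 1839 in Sham-F, a log2 fold change of 1.11 ± 0.34 (adjusted p = 0.0046). Prelp had 39.1, 49.9 and 145.5 in Sham-H and 77.4, 145 and 307 in Sham-F, a log2 fold change of 1.27 ± 0.34 (adjusted p = 0.0012). The groups overlapped, with 5 of 9 stage F libraries above the stage H range for Bgn and 4 of 9 for Prelp. Fmod, Dcn and Lum differed by 0.72 ± 0.36, 0.52 ± 0.31 and 0.28 ± 0.37 and were not called (adjusted p = 0.082, 0.15 and 0.53). Fibroblast markers were higher in the LV at stage F in 7 of 9, and their part in the result was not tested.

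In the RV, 0.0502% of all genes were called between the sham stages, and 0 of 5 members in edgeR or DESeq2, none at an unadjusted p under 0.05 (Bgn -0.06 ± 0.34, Prelp 0.08 ± 0.36, Dcn 0.38 ± 0.31, Lum 0.23 ± 0.37, Fmod 0.46 ± 0.37). The test of the difference itself, LV minus RV, gave 1.16 ± 0.48 for Bgn (adjusted p = 0.043) and 1.19 ± 0.49 for Prelp (adjusted p = 0.044). With 41.6% of all genes called, 2 of 5 members is near the background. These values lay near the threshold, and leaving out single libraries moved the count of called members, to 0 or 1, for 22 of 32 libraries. With the animal as a block, which pairs the chambers, Bgn was 1.30 (adjusted p = 0.00067) and Prelp 1.31 (adjusted p = 0.0010). Dcn, Lum and Fmod differed by 0.13 ± 0.44, 0.05 ± 0.52 and 0.26 ± 0.51.

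The balance within the family was described by ratios, where each ratio of FPKM is taken inside 1 library. The Bgn to Dcn ratio had a median of 0.243 in RV Sham-F (0.155 to 0.418) and 0.546 in LV Sham-F (0.447 to 1.71), and no library of one group lay within the range of the other. It was 0.654 in LV PAB-F and 0.700 in LV AOB-F, against medians of 0.223 to 0.317 in the 6 RV groups and 0.250 to 0.319 in the 3 LV groups of stage H. The Prelp to Dcn ratio had a median of 0.0475 in RV Sham-F (0.0335 to 0.0644) and 0.137 in LV Sham-F (0.106 to 0.422), which did not overlap either. Separation was common between these 2 groups, where 41.8% of all genes tested had levels without overlap. No such share was counted for ratios. The Prelp to Bgn ratio moved less, with group medians between 0.172 and 0.269. The Lum to Dcn ratio rose from a median of 0.158 in RV Sham-H (0.132 to 0.204) to 0.199 in RV PAB-H (0.184 to 0.244), with overlap, and was 0.150 and 0.140 in RV and LV Sham-F. These ratios are descriptions and were not tested.

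**Figure D3:**
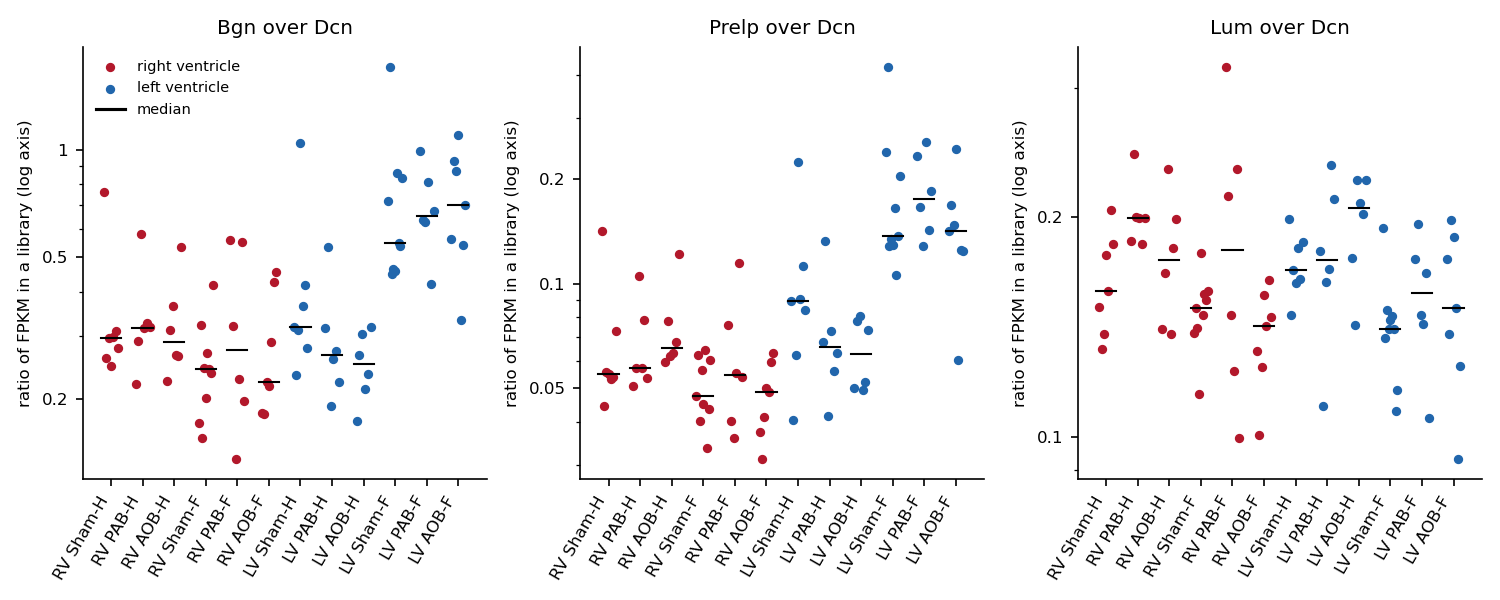
Ratio of the FPKM of Bgn, Prelp and Lum to that of Dcn within each library (log axis), by group, with the RV in red, the LV in blue and medians as bars. Bgn over Dcn and Prelp over Dcn lie higher in the 3 LV groups of stage F than in most other libraries, while Lum over Dcn ranges from 0.0932 to 0.321 over all groups.

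In the RV, Dcn was higher in males than in females, in a comparison added after the Sham-F values had been seen. It sets 21 males against 20 females within the 6 RV groups, and 8.38% of genes were called. Without the Sham-F libraries, which prompted it, the log2 difference of Dcn was 0.74 and was not called (adjusted p = 0.092). The groups of 1 sex within a condition are small, from 2 to 5 animals, so the sexes are unevenly spread over the conditions (4 males and 2 females in each PAB group). Dcn had medians of 1557 in the 4 male and 786 in the 5 female RV Sham-F libraries, with ranges of 1076 to 2304 and 585 to 1008 that did not overlap. In RV AOB-F it ranged from 1611 to 1918 in 4 males and from 828 to 1216 in 3 females, and in RV PAB-H from 996 to 6495 in 4 males and from 869 to 951 in 2 females. The male median was higher in 6 of 6 RV groups, and the sexes did not overlap in 3 of them. They did not overlap in 2 RV groups for each of Lum, Bgn and Prelp and in 1 for Fmod. How many of all genes separate the sexes in this way was not counted, and groups this small can separate by chance. The log2 difference was 0.82 ± 0.20 (adjusted p = 0.0062, edgeR with the 6 groups as strata).

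Lum, Bgn, Fmod and Prelp had male minus female log2 differences of 0.72 ± 0.25, 0.53 ± 0.22, 0.41 ± 0.18 and 0.60 ± 0.21 in the RV and were not called (adjusted p = 0.065 to 0.16). Each of them had an unadjusted p under 0.05 in edgeR (0.0066 to 0.032), as had 2808 of 11529 genes with Dcn among them. Whether Dcn differed from the other members was not tested. Dcn was called in every fit without 1 library (0.74 to 0.91). Without both PAB groups it was 0.59 (adjusted p = 0.017), and without RV PAB-H replicates 1 and 2 and RV PAB-F replicates 1 and 3 it was 0.52 (adjusted p = 0.0073). All of these fits kept Sham-F libraries, which prompted the comparison, so they give no independent evidence of the difference. In the LV, with 9.9% of genes called, Dcn differed by 0.25 ± 0.15 (adjusted p = 0.32), with the sexes not overlapping in LV PAB-F (1219 to 1630 in 4 males and 982 to 1212 in 2 females), and none of the 5 members was called or had an unadjusted p under 0.05. The sex difference of Dcn in the RV minus that in the LV was 0.57 ± 0.26, which did not pass the adjustment over all genes (adjusted p = 0.27). That fit did not pair the chambers of an animal. Of the fibroblast markers in the RV, 5 of 9 were higher in males and 0 lower (median log2 difference 0.62), and their share of counts had a higher median in males in 6 of 6 RV groups. That share did not overlap between the sexes in 3 of them, RV PAB-H, RV Sham-F and RV AOB-F, the same groups as for Dcn. Their part in the Dcn difference was not tested.

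**Figure D4:**
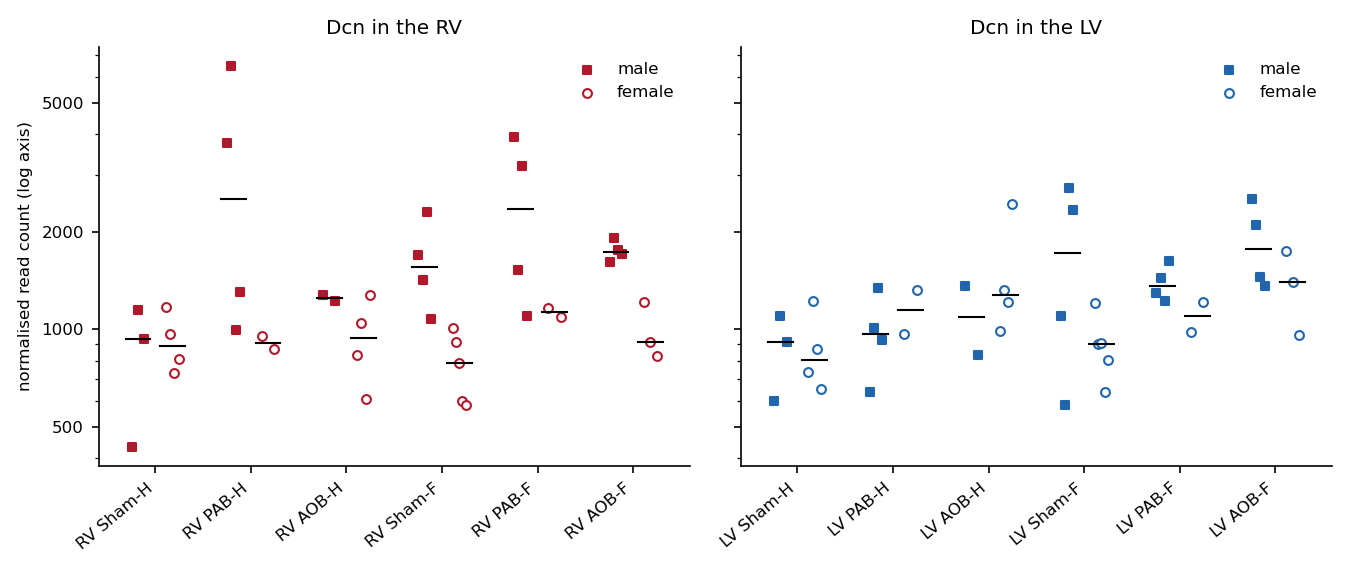
Normalized read counts of Dcn (log axis) in male (squares) and female (circles) libraries of each group, RV on the left and LV on the right, with medians as bars. Males lie above females without overlap in RV PAB-H, RV Sham-F, RV AOB-F and LV PAB-F.

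Across the 82 libraries, Dcn varied most closely with Lum, and Bgn with Prelp. Over log2 CPM, Pearson's r was 0.912 for Dcn with Lum and 0.945 for Bgn with Prelp, against 0.586 for Dcn with Bgn. After subtracting group means, r within the RV groups was 0.924 for Dcn with Lum, 0.902 for Bgn with Prelp and 0.698 for Dcn with Bgn. Within the LV groups it was 0.897, 0.929 and 0.538. Fmod followed Bgn (r = 0.821, and 0.828 and 0.808 within RV and LV groups). These values are across libraries that share animals, chambers and depth, and are given without a test.

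The genes outside the family with the most alike pattern differed between the pairs. For Dcn they were Pdgfra (r = 0.867), a receptor tyrosine kinase of fibroblasts, Colec12 (0.825) and Dpt (0.824), and for Lum they were Igsf10 (0.857), Colec12 (0.848) and Fam198b (0.840). For Bgn they were Serping1 (0.941), the C1 inhibitor, Ptgis (0.930), prostacyclin synthase, and Slit3 (0.923), and for Prelp Serping1 (0.937), Gpx3 (0.930) and Ptgis (0.923). Fmod was most like Slit3 (0.882), C4b (0.855) and Adamts15 (0.847). All r are over the same 82 libraries.

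**Figure D5:**
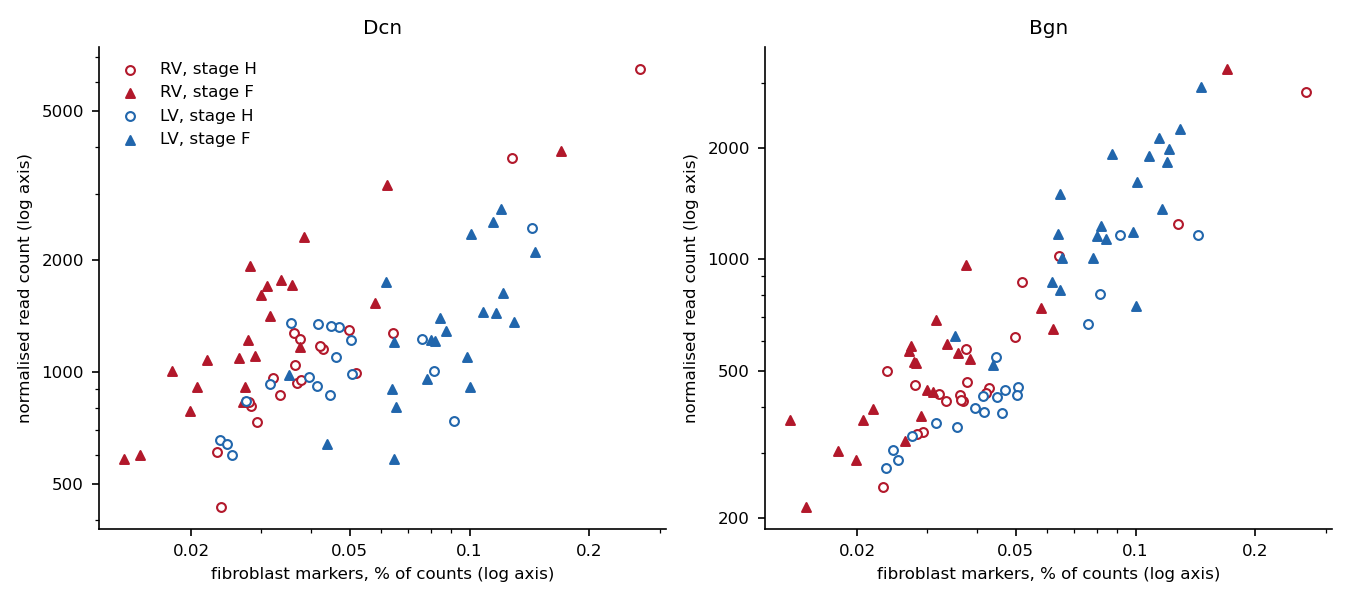
Normalized read count of Dcn and of Bgn (log axis) against the share of counts on 10 fibroblast markers in each of the 82 libraries (log axis), by ventricle and stage. The highest Dcn value lies at a share of 0.268% and the highest Bgn value at 0.170%.

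The wider pathway was described through lists of the proteins that SLRPs meet. The counts of genes called are read beside 4.5% of all genes called in RV PAB-H and 11.1% in RV PAB-F, and the medians beside 0.0043 and 0.016 over all genes. The list counts were lower without the libraries that stood apart. Without RV PAB-H replicate 2, 1 gene of the 6 lists was called, 1 of 18 growth factors and receptors, and 27 of 12013 genes in all, with the collagens at a median of 0.66. Without RV PAB-F replicate 1, 0 of 9 collagens, 1 of 22 chain-building genes (lower), 1 of 10 processing genes, 1 of 18 growth factors and receptors and 2 of 17 other proteoglycans (1 higher, 1 lower) were called, and 358 of 12015 genes in all, with the collagens at a median of 0.51. Of the other genes of the SLRP family, 2 were tested. None was called in RV PAB-H, and in RV PAB-F 1 was, Tsku (log2 fold change 1.47), a secreted antagonist of several signalling pathways. Kera was at 0 in all 82 libraries and Epyc had at most 39 counts. Of 9 fibril collagens, 6 were higher in RV PAB-H (median 1.03) and 5 in RV PAB-F (median 0.74). The leading collagens at both stages were Col3a1 (log2 fold change 1.37 and 1.53) and Col1a1 (1.30 and 1.43), the fibrils that Dcn and Lum coat, followed by Col14a1 (1.27 and 1.08). Col16a1 was higher in RV PAB-H (1.06) and Col5a2 in RV PAB-F (0.94).

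Of 22 genes that build glycosaminoglycan chains, 2 were higher and 1 lower in RV PAB-H, and 4 higher and 1 lower in RV PAB-F. Dse, an epimerase that makes dermatan sulfate, was higher at both stages (0.93 and 0.78) and Ust, a sulfotransferase, lower at both (-0.66 and -0.87). Dsel (0.93) was higher in RV PAB-H, and Chst1 (1.03) and Chpf2 (0.66) in RV PAB-F. Of 10 genes that process or cleave SLRPs and their partners, 2 were higher in RV PAB-H and 4 in RV PAB-F. Mmp2, a gelatinase (1.43 and 1.09), and Pcolce, an enhancer of procollagen cleavage (1.08 and 1.43), were among them at both stages, with Mmp12 (2.82) and Adamts5 (0.74), an aggrecanase, at stage F.

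Of 18 growth factors and receptors that SLRPs bind, 5 were higher in RV PAB-H, and 5 were higher and 1 lower in RV PAB-F. Tgfb2 rose most (1.79 and 2.59). Tlr4, a receptor for Bgn, was 1.23 and 0.89, and Tgfb3 1.17 and 0.81. Lrp1 (1.33), an endocytic receptor, was higher in RV PAB-H, and in RV PAB-F P2rx7 was higher (0.81) and Erbb4 lower (-0.65). Of 17 other proteoglycans, 3 were higher in RV PAB-H, with Sdc1 at 1.55, Vcan at 1.42 and Spock2 at 0.61, and 5 were higher and 1 lower in RV PAB-F, with Vcan at 1.36, Spock2 at 0.80, Cspg4 at 0.74, Srgn at 0.70 and Tgfbr3 at -0.36.

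In the loaded LV of stage F, where no member and 12.9% of all genes were called, the same lists held 7 of 18 growth factors and receptors that were higher (Tlr2 2.11, Tgfb2 2.04, Cd14 1.40 and Cd44 1.12 leading), 3 of 17 other proteoglycans (Vcan 1.44, Prg4 0.91 and Sdc4 0.78), and 1 of 10 processing genes, Mmp12 (3.33). Of 22 chain-building genes 2 were higher and 1 lower (Csgalnact2 0.71, Chsy1 0.34, Ust -0.58), and of 9 collagens 1 was lower (Col11a2 -1.37), both near the share over all genes. In LV AOB-H edgeR called 0 of the 78 list genes tested (13 had an unadjusted p under 0.05) and DESeq2 called 1. The collagen and processing lists share 4 genes with the fibroblast markers (Col1a1, Col1a2, Col3a1 and Mmp2).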

How the data were processed

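RNA was sequenced from cardiomyocytes of the RV and LV after depletion of ribosomal RNA. The authors trimmed reads (Trim Galore), aligned them (STAR) to the rat genome Rnor6.0 and counted them per gene (featureCounts, reads on overlapping genes left out). Whether strand was used in counting is not given in the sources used here. They deposited raw counts, counts divided by DESeq2 (1.28.1) size factors (a normalized signal) and FPKM values. FPKM values were deposited by the authors and used here only for levels and ratios between genes.

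The deposited counts were tested with edgeR (4.0.16, R 4.3.3) quasi-likelihood fits with TMM factors over 12 group means and all 82 libraries, after the filterByExpr filter (11954 genes). P-values were adjusted by Benjamini-Hochberg over all genes tested, two-sided, and a gene was called at an adjusted p under 0.05. Standard errors are the log2 fold change over the root of F. Normalized counts are counts over TMM library size, scaled to 13279120. Replicates were separate animals, numbered by the labels.

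The numbers pair RV and LV of an animal (median r of deviations 0.186 to 0.297 by condition, against -0.069 to -0.014 between animals). On simulated counts the PAB-F comparison in the RV recovered 194 of 200 genes changed by 1.5 (log2), with 11 others called, and the RV minus LV contrast 169 with 6 others. The simulated libraries were drawn independently of each other, with no shared animals and no library that stood apart over many genes. The real libraries differ in both respects, so these rates need not hold for them. Alternatives were RLE factors, no filter, DESeq2 (1.42.0), the 3 criteria of the study (log2 fold change over 1, p at most 0.01, mean count over 50), only the groups compared, sex as a covariate, replicate blocks and leaving out each library. Genes named are all 8 members, up to 4 called genes with the largest change per pathway list and loaded ventricle, and the 3 genes of most alike pattern. The members and lists were chosen with earlier results of these data known.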

Additional observations from a re-analysis of the deposited data

Results flagged for a closer look

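In 14 of 60 groups of a member's values, the highest library stood apart from the next by Dixon's test. The test flags about 1 in 20 groups by chance where values are normally distributed and groups independent. These counts were not put on a log scale and the members share libraries, so 14 of 60 cannot be measured against that rate. RV PAB-H replicate 2 stood apart for Lum (1694 normalized counts, next 741) and Bgn (2838, next 1244), and RV PAB-F replicate 1 for Lum (1341, next 499), Bgn (3273, next 968) and Prelp (260.5, next 118). These libraries had the highest fibroblast marker shares of their groups, 0.268% and 0.170%, and their part was not tested.

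LV AOB-H replicate 6 stood apart for all 5 members, with 2438 for Dcn, 584 for Lum, 1166 for Bgn, 195 for Fmod and 157 for Prelp, and also had the highest fibroblast share (0.143%) and endothelial share (0.529%) of its group. LV PAB-H replicate 2 stood apart for Bgn (808) and Fmod (138), LV Sham-H replicate 5 for Lum (237) and RV Sham-F replicate 2 for Fmod (122).

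The difference between the sham stages differed between the LV and the RV for Bgn (1.16 on the log2 scale) and Prelp (1.19), by the test of the difference itself. In that test 41.6% of all genes were called, so 2 of 5 members is near the background. Both calls were lost with no filter on low counts (adjusted p = 0.052 and 0.055) and under the 3 criteria of the study, and leaving out 1 library moved the count for 22 of 32 libraries. With the animal as a block both were called (1.30 and 1.31).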

How the results depend on the processing

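RLE factors, DESeq2 and the fit of only the groups compared moved no count of called members beyond 1.5 times, and no called member changed direction under any alternative run. Members that were not called did so when 1 library was left out, for example Bgn (-0.42 to 0.32) and Prelp (-0.29 to 0.33) in LV AOB-H. Leaving out 1 library at a time gave 0 to 5 called members in RV PAB-H (main 4) and 0 to 4 in RV PAB-F (main 3), 0 without RV PAB-H replicate 2 and RV PAB-F replicate 1 respectively. Leaving out RV PAB-H replicates 1 and 2, or RV PAB-F replicates 1 and 3, a choice made after the data were seen, left 0. Sex as a covariate left 3 in RV PAB-H, Bgn being at adjusted p = 0.051 (1.20). The 3 criteria of the study called 3 members (Lum, Bgn and Prelp) for the PAB-H response, RV minus LV (main 0).

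The age difference between chambers (main 2) gave 0 with no filter, 0 under the 3 criteria and 0 to 2 without 1 library, and kept 2 only without LV Sham-H replicates 4 or 5, RV Sham-H replicate 6, LV Sham-F replicates 5, 7, 8 or 9, or RV Sham-F replicates 1, 2 or 3. The sex comparison in the RV (main 1) gave 0 without the Sham-F libraries and 1 to 3 without 1 library, with Lum or Prelp added without RV Sham-H replicate 1, RV AOB-H replicate 6 or RV PAB-F replicates 2, 4 or 5. With no filter, Omd was also called between the chambers of Sham-F, at 3 counts or fewer per library. For the pathway lists, 15 of 96 counts under other settings moved by more than 1.5 times.

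By the labels, the replicate numbers pair the chambers of 1 animal, and equal numbers in different conditions are different animals. The lowest r of deviations was -0.14 to 0.13 by condition within animals and -0.45 to 0.059 by comparison between conditions. For PAB-F against Sham-F all number pairs had a positive r (0.036 to 0.249 in the RV, 0.059 to 0.355 in the LV). Males had the lower numbers in every group, so a block by number partly follows sex. With the number as a replicate block, 0 members were called in RV PAB-H and 0 in RV PAB-F. With the animal as a block, the RV against LV comparison in Sham-F called 3 members (Bgn -1.51, Prelp -1.81 and Fmod), and the block changed no other count beyond 1.5 times.

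Counts of 3 or fewer for Ogn, Aspn and Omd give no level.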
